A study of Mus musculus with 6 samples.

Results

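Splicing regulators are the RNA-binding proteins that decide which exons the spliceosome joins, together with the kinases that act on them. The 38 mouse genes described here were chosen by name: 10 SR proteins, both TRA2 proteins, 15 hnRNP proteins, the 3 muscleblind proteins, the PTB proteins Ptbp1 and Ptbp3, the CELF proteins Celf1 and Celf2, Qk, Rbm39, and the kinases Clk1 and Clk4. They make up 38 of the 22288 genes of the expression table, counted after transcript rows were added to their gene row. Transcript rows whose gene has no row count there as genes of their own. Of the 20977 separate transcript rows 113 belong to the members. RNA came from naive CD8+ T cells of wild type C57BL/6 spleens that were stimulated for 48 h through CD3 and CD28 in medium with mouse IL-2. In 3 libraries the cells had received 10 nM ponatinib, an inhibitor of ABL and many other kinases, and in 3 libraries DMSO, its solvent. The comparison asks what ponatinib changed during stimulation at this single dose and time. Whether the replicates were separate mice or cultures is not in the labels. The p-values therefore weigh a difference against the spread among these 6 samples alone, and that spread may be technical.

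SR proteins mostly bind exons and promote their inclusion, while hnRNP and PTB proteins often repress exons. Muscleblind, CELF and Quaking proteins act on exons whose use changes during development and differentiation, and CLK kinases phosphorylate SR proteins. Many of these genes limit their own protein through splicing: an additional exon brings an early stop codon, or the loss of an exon shifts the reading frame, and nonsense-mediated decay removes the transcript. Such an additional exon is known as a poison exon.

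The table has a gene row for every member. GENCODE M21 is the gene annotation used here. Nearly all transcripts outside its basic set that it marks as coding or as targets of nonsense-mediated decay have a separate row. Early-stop forms among them can be read apart from the rest of the gene. Few decay targets of the basic set (1.15%) and almost no retained-intron transcripts (0.037%) have a separate row. Whether reads of such transcripts were assigned to other rows was not tested. The sequences that distinguish these forms are shown for the members whose autoregulatory exon is read below. In the first 5, the stretch runs from the start of the additional exon through its stop codon, which is in capitals. The other 2 are coding exons that the early-stop form lacks. All coordinates are GRCm38, and the letters come from the GENCODE M21 transcript sequences.
Srsf3-201, chr17:29039454-29039487, plus strand: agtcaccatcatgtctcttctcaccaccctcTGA
Srsf7-203, chr17:80205054-80205081, minus strand: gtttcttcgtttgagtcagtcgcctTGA
Tra2a-202, chr6:49252965-49253108, minus strand: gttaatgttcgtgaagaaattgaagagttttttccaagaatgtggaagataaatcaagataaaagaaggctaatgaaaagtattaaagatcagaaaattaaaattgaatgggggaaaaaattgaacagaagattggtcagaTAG
Tra2b-206, chr16:22259181-22259261, minus strand: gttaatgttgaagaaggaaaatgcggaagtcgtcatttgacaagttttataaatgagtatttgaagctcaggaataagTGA
Rbm39-225, chr2:156178881-156178952, minus strand: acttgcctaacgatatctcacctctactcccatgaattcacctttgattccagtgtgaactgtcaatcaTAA
Ptbp1-201, chr10:79862014-79862047, plus strand, skipped: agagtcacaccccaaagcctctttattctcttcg
Clk1-210, chr1:58420121-58420211, minus strand, skipped: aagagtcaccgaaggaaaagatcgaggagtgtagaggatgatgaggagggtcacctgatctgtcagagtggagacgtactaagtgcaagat
The Srsf3 exon is 456 nt long and its stop codon ends after 34 nt, and the Srsf7 exon is 460 nt long with the stop ending after 28 nt. The exons of the paralogs Tra2a (306 nt) and Tra2b (276 nt) begin with the same 9 bases. The Rbm39 exon is 73 nt long and its stop lies at its end. The skipped exons of Ptbp1 (34 nt) and Clk1 (91 nt) both leave a remainder of 1 when divided by 3, so their loss shifts the reading frame.

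Values are TPM, which are scaled by transcript length and by library total and therefore keep no read depth. Each library had 6551 to 6972 genes at 10 TPM or above. The first principal component of all genes, with 72.75% of the variance, separated the treatments. DMSO replicate 3 stood apart on the second, at 14.1 against -6.27 and -9.89 for DMSO replicates 1 and 2, and mitochondrial genes held 4.78% of its TPM against 9.76% and 10.7%; the ponatinib libraries had 7.16% to 8.19%. All 9 marker genes of CD8 T cells were present, with summed levels of 3065 to 3348 TPM with ponatinib and 2908 to 3088 TPM with DMSO. Single markers moved in both directions. Cd8a (331 to 371 against 227 to 245 TPM), Cd8b1 (413 to 517 against 303 to 347 TPM) and Cd3e were higher in every ponatinib library. Cd2 was lower in every ponatinib library (234 to 245 against 364 to 515 TPM), and the groups overlapped in the remaining CD8 T cell markers. Markers of other cells differed between the groups, and 1 gene made up most of several sums. The 8 B cell markers (2 of them at 1 TPM or more) summed to 18.5 to 20 TPM with ponatinib and 7.38 to 14.5 TPM with DMSO, of which Cd79b held 12.4 to 13.95 and 6.69 to 9.48 TPM. The 4 CD4 T cell markers (all at 1 TPM or more) summed to 18.4 to 22.9 TPM with ponatinib and 5.49 to 14.9 TPM with DMSO. Of these, Foxp3 held 7.33 to 12.8 TPM with ponatinib and at most 1.42 TPM with DMSO. The other 3 summed to 9.63 to 12.2 TPM with ponatinib and 4.12 to 13.6 TPM with DMSO, and these sums overlapped. Cd4 (4.23 to 5.32 against 0.713 to 2.84 TPM) and Cd40lg (3.71 to 4.56 against 0.808 to 1.28 TPM) were each higher in every ponatinib library. Zbtb7b had 1.35 to 2.88 TPM with ponatinib and 1.67 to 9.53 TPM with DMSO, where the groups overlapped. Of the 4 NK markers only Eomes, which activated CD8 T cells also express, reached 1 TPM, at 33.4 to 42.2 TPM with ponatinib and 18.4 to 30.8 TPM with DMSO, and the other 3 summed to 0.750 to 1.08 and 0.0621 to 0.465 TPM. Among the 10 myeloid markers (3 at 1 TPM or more), Cst3 had 86.4 to 87.7 TPM with ponatinib and 109 to 113 TPM with DMSO, while the other 9 summed to 7.74 to 10.05 and 2.62 to 3.19 TPM. The 6 erythroid and platelet markers summed to 2.26 to 4.87 TPM with ponatinib and 0.454 to 1.203 TPM with DMSO. None of these markers was at 0 in every library, and the 4 nuclear RNA markers looked for had no row. Their part in the results was not tested, and in bulk RNA a change in the cells present cannot be told apart from a change in RNA per cell.

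As deposited, 23 of the 38 members rose with ponatinib and 0 fell. The level of a gene here is its summed TPM, the gene row plus its transcript rows, and a member was called when the adjusted p of a limma fit over all 6816 genes averaging 10 TPM or more was under 0.05. All 38 members passed that minimum. Of all genes tested 27.3% were called higher and 9.13% lower. The members' median log2 difference was 0.19, against 0.10 for all genes tested. The log2 difference lay above 0 in all 38 members and in 68.3% of all genes tested. The 3 ponatinib libraries all lay above the 3 DMSO libraries in 26 members and below them in 0, where the shares among all genes tested were 37.6% and 13.8%. Together the members held 1.445%, 1.46% and 1.53% of all TPM with ponatinib and 1.24%, 1.24% and 1.32% with DMSO.

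The number of calls depended on how the libraries were scaled. Scaling by medians of ratios, which moves the median of all genes from 0.10 to 0.00, left 12 members higher and 0 lower, with 15.5% of all genes called higher and 16.7% lower. The median of the members was then 0.09. Leaving out 1 library at a time gave 12 to 32 higher members. The count was 32 without DMSO replicate 3, where 39.3% of all genes were called higher and 9.86% lower. It was 12 without ponatinib replicate 3, 13 without DMSO replicate 1 and 15 without ponatinib replicate 2. For the fits that kept DMSO replicate 3 the shares over all genes are not given here, so those counts have no background beside them. Quantile normalization left 14 members higher, with 18.3% of all genes called higher and 14.5% lower. The 12 members called under both scalings were Mbnl1, Mbnl3, Srsf1, Srsf2, Srsf5, Srsf6, Hnrnph1, Hnrnpll, Hnrnpm, Hnrnpd, Hnrnpr and Hnrnpu.

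**Figure D1:**
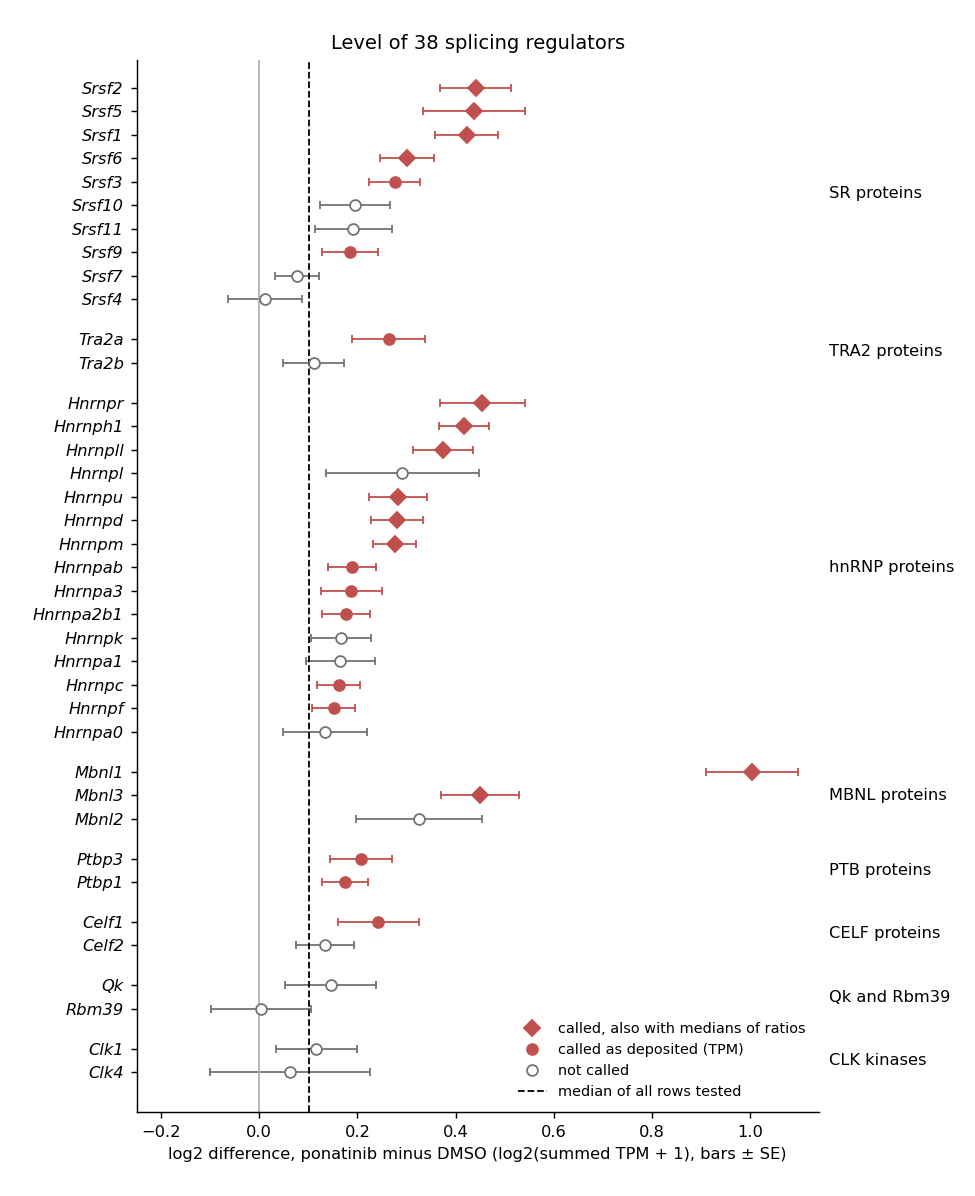
Log2 difference in summed TPM (ponatinib minus DMSO, log2(TPM + 1), bars are SE, n = 3 libraries per group) of the 38 splicing regulators, grouped by family; filled symbols were called, diamonds were also called after scaling by medians of ratios. Mbnl1 stands at 1.004, every other member lies between 0.00 and 0.45, and the dashed line marks the median of all genes tested, 0.10.

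Mbnl1 showed the largest difference among the members. It encodes muscleblind-like 1, which binds exons and introns around alternatively spliced exons and lies at chr3:60472830-60629750 on the plus strand. Its summed level was 317, 258 and 276 TPM in the ponatinib libraries and 143, 127 and 153 TPM in the DMSO libraries. The lowest ponatinib library lay well above the highest DMSO library. The means were 284 ± 30.5 and 141 ± 13.5 TPM (SD, n = 3 each), a ratio of 2.01 (log2 difference 1.004, SE 0.09, adjusted p = 4.58e-04). Mbnl1 was the only member to reach a 2-fold ratio, and it was called under all 14 alternative settings of the level test. Mbnl3, a muscleblind gene with lower levels, measured 14.7, 15.5 and 15.1 TPM with ponatinib and 10.3, 10.7 and 11.3 TPM with DMSO (log2 difference 0.45, SE 0.08, adjusted p = 0.00432). The groups did not overlap in either gene. Mbnl2 had 16.3, 14.9 and 12.9 TPM with ponatinib and 10.4, 10.7 and 13.7 TPM with DMSO. There DMSO replicate 3 lay above ponatinib replicate 3, and the gene was not called (log2 difference 0.33, SE 0.13, adjusted p = 0.0811).

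Of the 10 SR protein genes 6 rose, and 4 of these were also called with medians of ratios. Srsf2, whose protein binds exonic enhancers and stays in the nucleus, had 529, 571 and 587 TPM with ponatinib and 418, 449 and 377 TPM with DMSO (log2 difference 0.44, SE 0.07, adjusted p = 0.0033). Srsf1, the prototype of the family, had 380.1, 412 and 401 TPM with ponatinib and 286, 323 and 282 TPM with DMSO (0.42, SE 0.06, adjusted p = 0.00249). In both genes every ponatinib library exceeded every DMSO library. Srsf6 had 140.1, 143 and 152 TPM with ponatinib and 120.0, 121 and 112 TPM with DMSO (0.30, SE 0.06, adjusted p = 0.0052). Srsf5 averaged 169.8 ± 12.3 TPM with ponatinib and 126 ± 18.7 TPM with DMSO (SD, n = 3 each; 0.44, SE 0.10, adjusted p = 0.014). Its DMSO replicate 3, at 147 TPM, lay closer to the ponatinib libraries than the other DMSO replicates, at 119 and 112 TPM. Srsf3 and Srsf9 rose by 0.28 and 0.19 as deposited, but not with medians of ratios (adjusted p = 0.0822 and 0.199).

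The SR genes Srsf4, Srsf7, Srsf10 and Srsf11 were not called. Srsf7 averaged 333 ± 9.55 TPM with ponatinib and 315 ± 6.05 TPM with DMSO, and Srsf4 85.2 ± 3.26 and 84.7 ± 7.95 TPM (SD, n = 3 each). Both log2 differences, 0.08 and 0.01, changed sign with medians of ratios, to -0.025 and -0.090. Srsf10, which represses splicing when dephosphorylated, averaged 72.3 ± 3.56 TPM with ponatinib and 63.1 ± 4.95 TPM with DMSO (adjusted p = 0.0648). Of the TRA2 genes, whose proteins bind exonic enhancers alongside SR proteins, Tra2a rose by 0.26 (SE 0.07, adjusted p = 0.0268) though not with medians of ratios (adjusted p = 0.207). Tra2b averaged 199 ± 13.5 TPM with ponatinib and 184 ± 7.69 TPM with DMSO and was not called.

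Of the 15 hnRNP genes 11 rose, and 6 of these were also called with medians of ratios. Hnrnph1, whose protein binds G-rich stretches, had 209, 212.8 and 226 TPM with ponatinib and 164, 165 and 156 TPM with DMSO (log2 difference 0.42, SE 0.05, adjusted p = 0.00115). Hnrnpll, known in mouse and human T cells for repressing the variable exons of Ptprc, which encodes CD45, had 51.5, 55.9 and 54.7 TPM with ponatinib and 43.0, 41.5 and 39.8 TPM with DMSO (0.37, SE 0.06, adjusted p = 0.0032). Neither gene had overlapping groups, and both were called under all 14 alternatives. Hnrnpm had 377, 385 and 398 TPM with ponatinib and 312, 327 and 319 TPM with DMSO (0.28, SE 0.04, adjusted p = 0.0032). Hnrnpr had 103, 108 and 121 TPM with ponatinib and 77.6, 74.9 and 89.4 TPM with DMSO (0.45, SE 0.09, adjusted p = 0.00598). In both of these genes the ponatinib libraries again lay above all DMSO libraries.

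**Figure D2:**
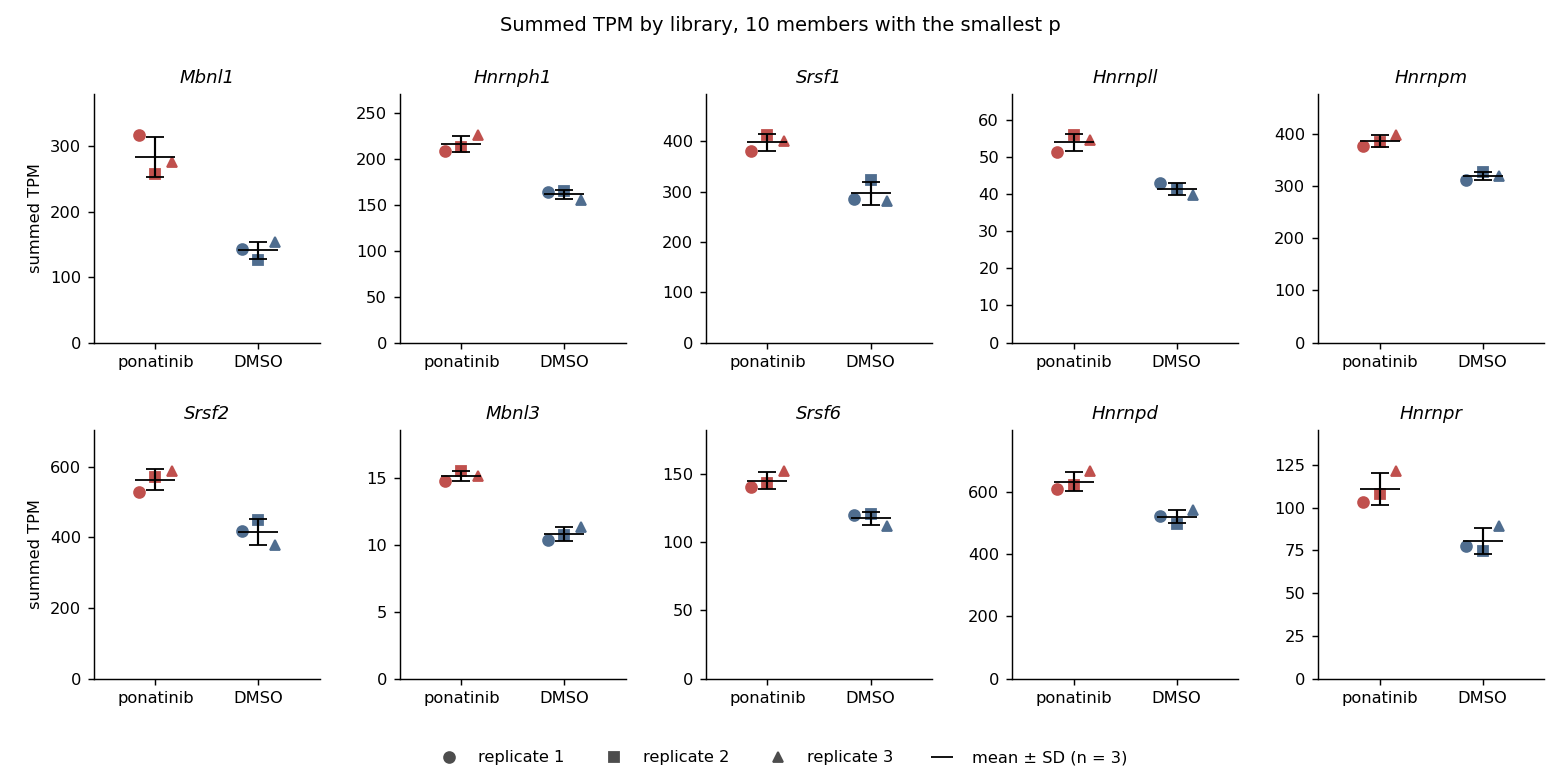
Summed TPM in each library for the 10 members with the smallest p in the level test, ponatinib left and DMSO right, with the mean and SD (n = 3). In all 10 genes the 3 ponatinib libraries lie above the 3 DMSO libraries, and in Mbnl1 they lie between 258 and 317 TPM against 127 to 153 TPM.

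The 8 members with the highest levels were all hnRNP genes, and 6 of these 8 rose as deposited. Hnrnpd, whose protein also binds AU-rich elements and affects mRNA decay, had 609, 621 and 666 TPM with ponatinib and 522, 497 and 541 TPM with DMSO (log2 difference 0.28, SE 0.05, adjusted p = 0.00591). Hnrnpu, whose protein binds chromatin and nascent RNA, had 674, 697 and 703 TPM with ponatinib and 542, 547 and 619 TPM with DMSO (0.28, SE 0.06, adjusted p = 0.00872). These 2 were called with both scalings. Hnrnpab had 1471, 1553 and 1544 TPM with ponatinib and 1291, 1404 and 1314 TPM with DMSO (0.19, SE 0.05, adjusted p = 0.0193). Hnrnpa2b1, which also takes part in RNA transport, had 1304, 1277 and 1388 TPM with ponatinib and 1193, 1130.2 and 1186 TPM with DMSO (0.18, SE 0.05, adjusted p = 0.024). Hnrnpf, a G-run binding relative of Hnrnph1, had 1039, 1028 and 1074 TPM with ponatinib and 929.6, 923 and 975 TPM with DMSO (0.15, SE 0.04, adjusted p = 0.028). In these 3 genes the groups did not overlap, but none was called with medians of ratios, and the sign of Hnrnpf turned under quantile normalization (-0.012). Hnrnpa3 had 1469, 1348 and 1525 TPM with ponatinib and 1271, 1196 and 1344 TPM with DMSO (0.19, SE 0.06, adjusted p = 0.0487). Hnrnpa1, a repressor of many exons, had 1402, 1442 and 1564 TPM with ponatinib and 1249, 1244 and 1442 TPM with DMSO (0.17, SE 0.07, adjusted p = 0.102). Hnrnpk had 828, 868 and 840.4 TPM with ponatinib and 709.7, 729.5 and 823 TPM with DMSO (0.17, SE 0.06, adjusted p = 0.0658). DMSO replicate 3 lay within the ponatinib range for Hnrnpa1 and just below it for Hnrnpk, and neither gene was called.

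Hnrnpl, a paralog of Hnrnpll that represses some of the same exons, had 366, 367 and 432 TPM with ponatinib and 299.7, 258 and 409 TPM with DMSO (log2 difference 0.29, SE 0.15, adjusted p = 0.176). Without DMSO replicate 3 the log2 difference was 0.48 with an adjusted p of 0.00264. Hnrnpc, a repressor of cryptic exons, was called as deposited, at 548 ± 19.7 TPM with ponatinib and 489.6 ± 4.2 TPM with DMSO (SD, n = 3 each), and Hnrnpa0 was not.

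Among the smaller families, Ptbp1 and Ptbp3, which encode pyrimidine-tract binding repressors, rose by 0.17 and 0.21 as deposited and were not called with medians of ratios (adjusted p = 0.353 and 0.139). Celf1 rose by 0.24 (SE 0.08, adjusted p = 0.0497), and Celf2, which in human T cells is known to be induced by activation, averaged 105 ± 2.12 TPM with ponatinib and 95.4 ± 6.03 TPM with DMSO and was not called. Qk averaged 31.3 ± 2.23 TPM with ponatinib and 28.2 ± 3.03 TPM with DMSO. The kinase genes Clk1 and Clk4 averaged 30.0 ± 2.43 and 10.2 ± 0.718 TPM in ponatinib libraries and 27.6 ± 1.91 and 9.89 ± 2.6 TPM in DMSO libraries (SD, n = 3 each). Neither kinase gene was called, and the log2 difference of Clk4 changed sign with medians of ratios (-0.030). Rbm39, a partner of the U2AF splice-site factor, averaged 138 ± 4.25 TPM with ponatinib and 138 ± 22 TPM with DMSO.

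Overlapping genes limit some of these values. Exons of 4 members overlap, on the opposite strand, those of a gene with at least 1 TPM: Hnrnpab with Phykpl, Hnrnpk with Rmi1, Hnrnpu with Cox20, and Srsf2 with Mettl23 and Mfsd11. Hnrnpm shares 1169 exon bases on the same strand with March2. The labels do not say whether the libraries kept strand, so reads from such pairs may not be told apart. Several hnRNP genes also have processed pseudogenes, and how the authors' quantification divided reads between copies was not given in the sources used here.

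Gene rows alone gave a similar count: 25 of the 36 members with a gene row of at least 10 TPM were higher and 0 lower, against 29.9% and 9.88% of all 6466 gene rows tested. Clk4 and Qk lay under that minimum. With medians of ratios 11 members were higher, against 16.6% higher and 17.6% lower among all gene rows. Some calls differed between the measures. As deposited, Hnrnpk and Srsf11 were called only by their gene rows (limma, adjusted p = 0.0227 and 0.0392). Hnrnpf was called only by its sum (adjusted p of its gene row 0.118). With medians of ratios Hnrnpd was called by its sum (adjusted p = 0.0194) but not by its gene row (0.217). Rbm39 was also called only by its gene row. Its gene row had 78.0, 75.1 and 78.2 TPM with ponatinib and 65.2, 61.0 and 70.4 TPM with DMSO and rose by 0.23 (SE 0.06, adjusted p = 0.0213), although not with medians of ratios (0.13, adjusted p = 0.0751).

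Transcript rows held a varied share of the members' TPM. Of the 38 members 32 had transcript rows, and in 29 of them at least 1 row averaged 1 TPM or more, 66 rows in all. Averaged over the 6 libraries, the transcript rows held at least 10% of the gene's summed TPM in 16 members and at least 40% in 6. Qk had the highest share, 90.6 ± 1.157% with ponatinib and 91.5 ± 1.94% with DMSO (SD, n = 3 each), divided between 2 rows. In Hnrnpu a single row, Hnrnpu-206, annotated as a decay target with a reading frame of 793 codons against 800 in the longest basic coding transcript, held 89.6 ± 0.2% of the gene with ponatinib and 89.7 ± 0.349% with DMSO (SD, n = 3 each). The share of all TPM in the library that lay in transcript rows was 6.97 ± 0.12% with ponatinib and 6.94 ± 0.171% with DMSO, and in decay-target rows 2.20 ± 0.0766% and 2.26 ± 0.0875%. Neither difference was detected in an exact two-sided permutation test (p = 0.8 and 0.5, both 0.8 after adjustment over 4 comparisons; the smallest p the design allows is 0.1).

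At the level of single transcript rows, 2 of the 66 member rows rose and 0 fell, both of Mbnl1, where 0.0717% and 0.239% of all 4182 transcript rows tested were called higher and lower. At an unadjusted p under 0.05, 15 member rows were higher and 1 lower, against 8.51% and 4.97% of all rows. Mbnl1-222 had 42.4, 23.5 and 21.8 TPM with ponatinib and 3.57, 5.61 and 5.38 TPM with DMSO (log2 difference 2.33, SE 0.28, adjusted p = 0.0328). Mbnl1-216 had 21.3, 20.9 and 16.7 TPM with ponatinib and 8.08, 7.41 and 8.42 TPM with DMSO (1.19, SE 0.15, adjusted p = 0.0328). The groups did not overlap in either row, as in 18 member rows higher and 2 lower with ponatinib, against 12.9% and 7.2% of all rows, and ponatinib replicate 1 was the highest library in both. Both calls were lost when any 1 library was left out, while the log2 differences of Mbnl1-222 stayed between 2.03 and 2.53 over all alternatives. The annotated models of both rows are incomplete coding transcripts without a stop codon, of 346 nt with 80 bases outside the basic coding transcripts for Mbnl1-222 and of 974 nt with 5 such bases for Mbnl1-216. Mbnl1-220, a similar short 5′ model, had 30.2, 19.0 and 19.9 TPM with ponatinib and 11.5, 5.20 and 7.52 TPM with DMSO and was not called (adjusted p = 0.102).

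The remaining transcript rows of Mbnl1 were not called. Mbnl1-210 averaged 12.4 ± 0.464 TPM with ponatinib and 6.45 ± 1.76 TPM with DMSO (SD, n = 3 each; adjusted p = 0.129). Mbnl1-215 averaged 11.3 ± 3.67 TPM with ponatinib and 9.88 ± 3.01 TPM with DMSO. The gene row, which excludes these transcripts, rose as well, with 189.6, 163 and 179 TPM with ponatinib and 99.1, 88.9 and 98.1 TPM with DMSO (log2 difference 0.89, SE 0.07, adjusted p = 2.16e-04). As a share of Mbnl1, the transcript rows together held 40.3%, 36.7% and 35.1% with ponatinib and 30.6%, 29.7% and 36.1% with DMSO, and that share was not called (adjusted p = 0.672). DMSO replicate 3 lay within the ponatinib range.

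**Figure D3:**
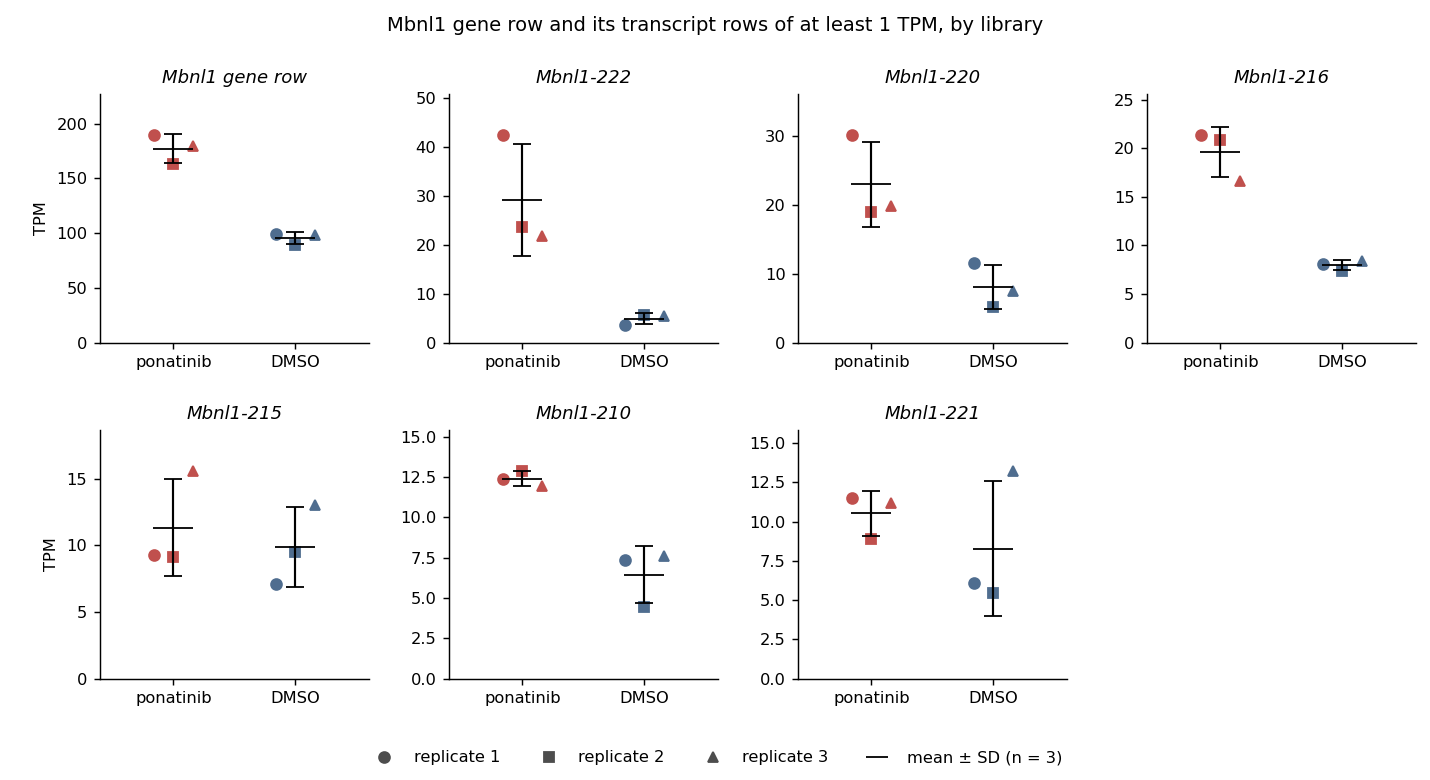
TPM in each library for the Mbnl1 gene row and its 6 transcript rows with a mean of at least 1 TPM, ponatinib left and DMSO right, with the mean and SD (n = 3); each panel has its own axis from 0. The groups are apart in the gene row and in Mbnl1-222, Mbnl1-220, Mbnl1-216 and Mbnl1-210, and they overlap in Mbnl1-215 and Mbnl1-221.

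No member's transcript-row share was called. The log2 ratio of transcript rows to gene row was tested in 29 members and 2524 genes in all, and 0 members and 0% of all genes were called in either direction (limma, adjusted p under 0.05). At an unadjusted p under 0.05, 1 member was higher and 2 were lower, where 4.36% and 4.71% of all genes were. The share of a single row against the rest of its gene was called in 0 of 66 member rows, against 0% higher and 0.0271% lower among all 3692 rows. At an unadjusted p under 0.05, 4 member rows were higher and 5 lower, against 4.5% and 4.52% of all rows. The 4 were Mbnl1-222, Mbnl2-210, Hnrnpd-208 and Hnrnpl-213, and the 5 were Srsf3-201, Rbm39-225, Mbnl1-215, Hnrnpl-204 and Hnrnpf-205; they are named here after their values were seen. In 9 member rows the share in every ponatinib library lay above that in every DMSO library and in 6 below, against 6.99% and 7.5% of all rows.

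Of the 66 member rows, the poison exon form of Srsf3 had the most negative log2 difference in share ratio, although the test did not call it. Srsf3-201, which holds the 456-nt exon shown above, had 5.24, 3.74 and 4.20 TPM with ponatinib and 15.1, 9.31 and 25.7 TPM with DMSO. That was 1.644%, 1.142% and 1.25% of Srsf3 with ponatinib and 5.63%, 3.27% and 10.0% with DMSO. The groups did not overlap, and the spread among the DMSO libraries was wider than the gap between the groups. The log2 difference was -1.62 in level (SE 0.34, adjusted p = 0.102) and -1.97 in share ratio (SE 0.42, adjusted p = 0.266). Without DMSO replicate 3 the share ratio stood at -1.55. The gene row of Srsf3, without this form, rose by 0.35 (SE 0.07, adjusted p = 0.00578), though not with medians of ratios (adjusted p = 0.057).

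Tra2b, Tra2a and Srsf7 gave low shares that varied among the DMSO libraries. Tra2b-206 held 1.38%, 2.29% and 2.50% of its gene with ponatinib and 4.76%, 2.19% and 8.12% with DMSO. A second row, Tra2b-209, averages 1.56 TPM and begins its early-stop exon with the same 81 nt through the stop. The transcript rows of Tra2b together held 2.42%, 3.38% and 3.25% with ponatinib and 5.44%, 2.59% and 9.35% with DMSO. Tra2a-202 held 0.559%, 0.699% and 1.04% with ponatinib and 1.59%, 0.735% and 2.96% with DMSO. Srsf7-203 held 0.449%, 0.400% and 0.380% with ponatinib and 0.610%, 0.285% and 1.42% with DMSO. In Tra2b-206, Tra2a-202 and Srsf7-203 the groups overlapped. There DMSO replicates 1 and 3 lay above every ponatinib library, with replicate 3 the highest. DMSO replicate 2 lay within or below the ponatinib range. The adjusted p of the share ratio was 0.582 for Tra2b-206 and 0.621 for Tra2a-202.

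Among the rows at 1 TPM or more whose stop codon lies in exon sequence outside the basic coding transcripts, Rbm39-225 held the largest share of its gene. Decay-target rows with other kinds of stop, such as those of Srsf6 and Hnrnpu, held larger shares. Rbm39-225, with the 73-nt exon, held 20.8%, 21.2% and 24.2% of the gene with ponatinib and 29.0%, 26.4% and 33.2% with DMSO. Every DMSO library lay above every ponatinib library, but the share ratio was not called (log2 difference -0.55, SE 0.19, adjusted p = 0.493). All transcript rows of Rbm39 together held 43.9 ± 1.64% with ponatinib and 52.1 ± 4.13% with DMSO (SD, n = 3 each; -0.47, SE 0.17, adjusted p = 0.478). The other Rbm39 rows with a stop in such exon sequence that averaged 1 TPM or more, Rbm39-222 and Rbm39-223, had overlapping groups. Rbm39-222 carries the same 73-nt exon and stop codon as Rbm39-225.

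**Figure D4:**
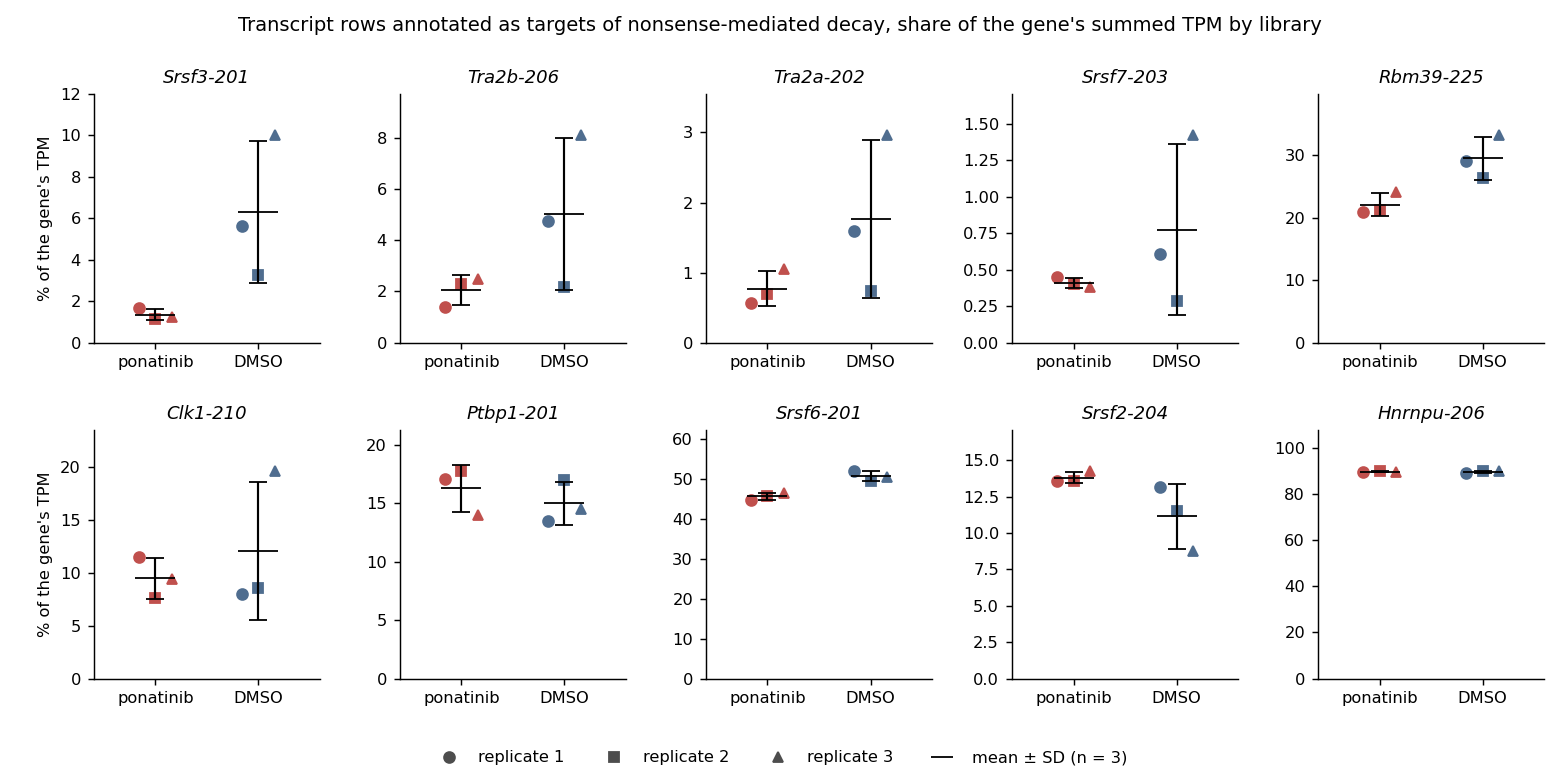
Share of the gene's summed TPM held by 10 transcript rows annotated as targets of nonsense-mediated decay, in each library, ponatinib left and DMSO right, with the mean and SD (n = 3); each panel has its own axis from 0. Srsf3-201, Rbm39-225 and Srsf6-201 have the 3 ponatinib libraries below the 3 DMSO libraries, Srsf2-204 has them above (over all rows tested 7.5% and 6.99% do so), and DMSO replicate 3 is the highest library in Srsf3-201, Tra2b-206, Tra2a-202, Srsf7-203, Rbm39-225 and Clk1-210.

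Over all member rows whose stop codon lies in exon sequence outside the basic coding transcripts, 13 rows of 9 genes at 1 TPM or more, the mean share was lower with ponatinib in 9. Among all 1082 decay-target rows tested the corresponding figure was 57.3%. DMSO replicate 3 was the highest of the 6 libraries in 10 of the 13, against 24.5% of all decay-target rows, and without it the share ratio was below 0 in 6 of the 11 rows that could be fitted. What sets this library apart was not tested. Hnrnpl-213 went the other way, with 1.61%, 1.68% and 1.37% of Hnrnpl with ponatinib and 1.04%, 0.936% and 0.891% with DMSO, and was not called (adjusted p = 0.486).

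In 9 rows of Srsf2, Hnrnpa1, Hnrnpa2b1 and Hnrnpd, the annotated stop is that of the longest basic coding transcript and an exon junction follows it. Whether the basic transcripts share that junction was not tested. The mean share was lower with ponatinib in 5 of these 9, and DMSO replicate 3 was the highest library in 2, both near the 57.3% and 24.5% of all decay-target rows. Srsf2-204 held 13.6%, 13.6% and 14.2% of Srsf2 with ponatinib and 13.2%, 11.5% and 8.73% with DMSO. Here the ponatinib libraries lay above all DMSO libraries and DMSO replicate 3 was the lowest, with a log2 difference in share ratio of 0.36 (SE 0.21, adjusted p = 0.689). Hnrnpd-208 held 4.03%, 2.93% and 3.21% of Hnrnpd with ponatinib and 2.46%, 1.83% and 1.90% with DMSO (0.67, SE 0.20, adjusted p = 0.435).

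The reading frame of Srsf6-201, of 135 codons against 339 in the longest basic coding transcript, ends at the stop of a shorter basic coding transcript. This row held 44.6%, 45.7% and 46.4% of Srsf6 with ponatinib and 51.9%, 49.4% and 50.4% with DMSO. The groups did not overlap, with means of 45.6 ± 0.896% for ponatinib and 50.6 ± 1.26% for DMSO (SD, n = 3 each), and the share ratio was not called (-0.29, SE 0.15, adjusted p = 0.647). The level of that row averaged 66.1 ± 4.03 TPM with ponatinib and 59.4 ± 2.87 TPM with DMSO, while the gene row without it rose by 0.44 (SE 0.06, adjusted p = 0.00117), also with medians of ratios (0.34, adjusted p = 0.00693). Ptbp1-201, which skips the 34-nt exon shown above, held 17.1%, 17.8% and 14.02% of Ptbp1 with ponatinib and 13.5%, 17.0% and 14.5% with DMSO, with overlapping groups. Mbnl2-210 held 9.13%, 15.3% and 11.9% of Mbnl2 with ponatinib and 0%, 0% and 5.59% with DMSO, where the gene lies near the minimum level and the row averages 1.01 TPM (adjusted p = 0.381).

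Among other genes of the splicing machinery, listed by role, more were called higher than lower as deposited, and fewer higher with medians of ratios. The shares over all genes tested were 27.3% higher and 9.13% lower as deposited, and 15.5% and 16.7% with medians of ratios, so that the U1 and Sm proteins, and with medians of ratios also the U4/U6.U5 genes, lay near or below them in higher calls. Of 13 U1 and Sm protein genes 4 rose and 0 fell (1 and 0 with medians of ratios), and of 19 genes of the U2 particle and branch point 11 rose and 0 fell (5 and 1). Of 24 genes of the U4/U6.U5 particle and catalytic core 16 rose and 0 fell (4 and 0), and of 33 other splicing regulators tested 16 rose and 1 fell (12 and 3). Of 17 genes of nonsense-mediated decay and the exon junction complex 10 rose and 0 fell (5 and 0). Among the kinases and transportin of SR proteins 4 of 9 rose and 1 fell (2 and 1). The gene that fell was Clk3, a relative of Clk1 and Clk4, at 34.0 ± 2.28 TPM with ponatinib and 51.0 ± 5.49 TPM with DMSO (SD, n = 3 each; log2 difference -0.57, adjusted p = 0.00295). Examples of genes that rose are Sf3b4 of the U2 particle (0.42), Prpf4b, a kinase of the tri-snRNP (0.47), Smg5 of the decay pathway (0.44) and Tardbp (0.34), each also called with medians of ratios. In none of these lists was a transcript-row share called.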

How the data were processed

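RNA libraries had been made from total RNA with a NEBNext Ultra II kit, per the labels' protocols. The authors deposited 1 table of TPM (shares of a library scaled by transcript length), recognised by columns that each add up to the same total. Tools named in the submitters' processing notes, without roles, are Salmon 1.5.1, fastp 0.19.5 and DESeq2 1.22.1, with the build GRCm38. The table held 22095 gene rows and 20977 transcript rows. Names, biotypes, exons and sequences came from GENCODE M21 (GRCm38); 97.04% of row identifiers carried a version exactly 1 higher than there, so the authors used another release, whose transcript models may differ. Of the decay-target transcripts outside the basic set 99.0% have a row, of the coding ones 98.8%, and of retained-intron transcripts 0.037%.

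Transcript rows were added to their gene row. Ponatinib was compared with DMSO on log2(TPM + 1), which understates changes of low genes, with limma 3.58.1 (lmFit, eBayes with trend, two-sided) in R 4.3.3, with Benjamini-Hochberg adjustment over all rows kept: means of at least 10 TPM for genes and 1 TPM for transcript rows. Shares were tested as log2 ratios with the same pseudocount. Ratios of levels are ratios of mean TPM. The fits were also run on simulated data whose added changes were larger than nearly all member differences, so smaller differences were not covered. TPM keep no depth, so precision rests on 3 libraries per group. No pairing was used: deviations of same-numbered libraries from their group means had correlations of -0.10, 0.11 and 0.02. With 3 libraries per group these values cannot decide whether same-numbered libraries share a mouse or culture.

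The members and lists were chosen with earlier results of these data known. Values in every library are given for the 10 called members with the smallest p and the called transcript rows. They are also given for the 8 members with the highest level. The 5′ and decay-target rows described beside them were chosen after their values were seen. Of other lists up to 3 called genes with the smallest p are named.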

Additional observations from a re-analysis of the deposited data

How the results depend on the processing

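No member was called lower in summed level under any of the 14 alternatives, and no transcript-row share or single-row share of a member was called under any alternative. The count of members higher in summed level was 23 as deposited, 12 with medians of ratios, 14 with quantile normalization, and 12 to 32 with 1 library left out. For gene rows it was 25, then 11, 15, and 11 to 32. Of all gene rows 19.7% were called higher and 15.5% lower with quantile normalization. Without DMSO replicate 3 the shares were 42.7% and 10.5%. Shares over all rows in the other leave-out fits are not given here. Of the 2 transcript rows called higher, 1 remained with a minimum mean 10 times lower, and 0 with no filter, with the replicate number as a block or with any 1 library left out (0 to 0). With the replicate block 27 members were higher in summed level, against 26.3% of all genes called higher and 9.14% lower. Whether the replicate numbers pair the libraries is not known. Small log2 differences changed sign. With medians of ratios these were Clk4 (-0.030), Rbm39 (-0.098), Srsf4 (-0.090) and Srsf7 (-0.025), and with quantile normalization Clk4 (-0.027), Rbm39 (-0.074), Srsf4 (-0.069) and Hnrnpf (-0.012). With 1 library left out the values ran from -0.071 to 0.12 for Clk4, -0.075 to 0.13 for Rbm39, -0.061 to 0.074 for Srsf4, -0.21 to 0.048 for the level of Hnrnpl-204 and -0.053 to 0.38 for the level of Mbnl1-215. The cause was not tested. Shares of retained-intron rows were not run, because almost none of those transcripts has a row. TPM carry no read counts, so the smallest shares, such as those of Srsf7-203 and Tra2a-202, have no counting error attached.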

Other observations

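Genes whose splicing has been studied in T cells were read beside their regulators. Of 12 such genes 6 rose with ponatinib and 2 fell, with the same counts after scaling by medians of ratios; over all genes tested 27.3% rose and 9.13% fell as deposited, and 15.5% and 16.7% with medians of ratios. Pkm, which encodes the pyruvate kinase whose isoforms PTB and hnRNP proteins select, averaged 1501 ± 83.5 TPM with ponatinib and 2513 ± 201 TPM with DMSO (SD, n = 3 each; log2 difference -0.74, adjusted p = 4.19e-04, limma). Fyn, a kinase of the T cell receptor pathway with alternative exons, averaged 154 ± 2.68 TPM with ponatinib and 119 ± 3.03 TPM with DMSO (0.37). Ikzf1, which encodes the transcription factor Ikaros, averaged 281 ± 9.37 TPM with ponatinib and 219.8 ± 8.21 TPM with DMSO (0.35). The share of transcript rows was tested in 7 of these genes and called in 0, with 2 at an unadjusted p under 0.05. Among all 2524 genes tested 4.36% were higher and 4.71% lower at that unadjusted p. In Ikzf1, transcript rows held 20.3% of the gene with ponatinib and 27.0% with DMSO (adjusted p = 0.305).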
